A study of Mus musculus with 15 samples.

Results

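Glucocorticoid handling in the newborn kidney was followed through 10 genes, each picked by name for its place in the pathway. They were the plasma binding globulin Serpina6, the 11-beta-hydroxysteroid dehydrogenases Hsd11b1 and Hsd11b2, the receptors Nr3c1 and Nr3c2, and the receptor targets Fkbp5, Sgk1, Tsc22d3, Zbtb16 and Per1. All 10 were among the 46517 genes of the RNA count files, and all 10 passed the filter on low counts that left 18132 genes. The genes were chosen with the transcript differences of these same samples known, so those differences are given as a description with no test. Lists of further genes read beside them were also drawn up with earlier results of these data known. Their counts and p-values are therefore descriptive too and give no independent support. DNA methylation was measured in other libraries and was not used in the choice of the 10, so it was tested.

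The series held 15 kidney samples of C57BL/6 mice, with 3 in each group. Newborn controls (P0, postnatal day 0) carried floxed Dnmt1 alleles without a recombinase, and the Dnmt1 knockouts (KO), also P0, carried the same floxed alleles together with Six2Cre, a recombinase under Six2 control that acts in nephron progenitors and the cells descended from them. Both newborn groups had messenger RNA sequencing and bisulfite sequencing of a reduced representation of the genome (RRBS), in which the methylation of cytosines in CpG-rich fragments is read. Wild-type adults of 6 weeks had RRBS only. Dnmt1 encodes the methyltransferase that copies methylation after replication, and Cre acts in part of the kidney only, so a bulk sample mixes recombined with unrecombined cells.

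Glucocorticoids circulate largely bound to corticosteroid-binding globulin, the product of Serpina6. Inside cells HSD11B1 regenerates the active hormone, while HSD11B2 inactivates it in the distal nephron and so keeps it from the mineralocorticoid receptor. The hormone-bound receptors NR3C1 and NR3C2 are released from chaperone complexes, enter the nucleus and bind DNA elements near genes such as Fkbp5, Sgk1, Tsc22d3 and Per1.

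Promoter sequences show where the RRBS fragments and the known kinds of response element lie. RefSeq promoter windows (build GRCm38.p6) were found for 6 of the 10 genes, Fkbp5, Hsd11b1, Nr3c2, Per1, Sgk1 and Tsc22d3, with 14 windows of 300 bases in all. The 250 bases before the start are shown 5′ to 3′ for 6 of them. In Hsd11b1 (chr1:193242361-193242610, minus strand) capitals mark its 6 CpG sites, none of which any RRBS library covered. In the first Sgk1 stretch (chr10:21993640-21993889, plus strand) capitals mark an E-box and a full glucocorticoid response element. In the second Sgk1 stretch (chr10:21978422-21978671, plus strand) and in Tsc22d3 (chrX:140600523-140600772, minus strand) they mark the CpG sites read at least 5 times in all 9 RRBS samples, 1 and 5 respectively. In Per1 (chr11:69098699-69098948, plus strand) and Fkbp5 (chr17:28486150-28486399, minus strand) they mark an E-box.
Hsd11b1: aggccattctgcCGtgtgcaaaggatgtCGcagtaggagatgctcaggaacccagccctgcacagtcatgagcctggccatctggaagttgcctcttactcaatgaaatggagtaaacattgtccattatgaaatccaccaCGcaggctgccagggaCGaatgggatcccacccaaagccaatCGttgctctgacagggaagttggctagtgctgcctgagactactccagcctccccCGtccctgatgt
Sgk1 with response element: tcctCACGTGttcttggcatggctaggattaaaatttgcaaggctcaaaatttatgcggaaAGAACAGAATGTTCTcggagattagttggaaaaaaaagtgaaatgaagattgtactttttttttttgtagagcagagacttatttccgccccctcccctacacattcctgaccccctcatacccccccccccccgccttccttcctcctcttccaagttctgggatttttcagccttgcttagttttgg
Sgk1 at an earlier start: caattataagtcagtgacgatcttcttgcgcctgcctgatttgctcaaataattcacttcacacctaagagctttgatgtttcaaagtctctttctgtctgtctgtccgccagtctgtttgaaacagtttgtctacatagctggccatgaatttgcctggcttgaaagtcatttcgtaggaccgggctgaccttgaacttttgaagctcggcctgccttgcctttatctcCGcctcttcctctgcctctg
Per1: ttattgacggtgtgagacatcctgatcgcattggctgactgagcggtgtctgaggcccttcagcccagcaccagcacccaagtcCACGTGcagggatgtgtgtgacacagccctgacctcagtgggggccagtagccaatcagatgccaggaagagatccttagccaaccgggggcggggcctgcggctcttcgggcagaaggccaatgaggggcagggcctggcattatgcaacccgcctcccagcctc
Fkbp5: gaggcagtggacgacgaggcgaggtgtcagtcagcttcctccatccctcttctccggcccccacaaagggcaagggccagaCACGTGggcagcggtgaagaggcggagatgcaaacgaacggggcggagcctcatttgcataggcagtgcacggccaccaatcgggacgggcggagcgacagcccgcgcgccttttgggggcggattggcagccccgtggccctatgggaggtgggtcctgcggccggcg
Tsc22d3: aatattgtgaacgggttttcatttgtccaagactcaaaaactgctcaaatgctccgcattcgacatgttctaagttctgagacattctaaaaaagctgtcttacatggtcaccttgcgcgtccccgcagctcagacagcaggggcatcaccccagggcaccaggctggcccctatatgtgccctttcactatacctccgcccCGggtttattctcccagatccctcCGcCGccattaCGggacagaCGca

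Both strands were searched for 4 motifs. The full glucocorticoid response element, AGAACA and TGTTCT with 3 bases of any kind between, lay 189 bases before the Sgk1 start and in 3 of 32851 promoter windows of the same length (0.00913%). Its relaxed form, GNACA and TGTNC with 3 bases of any kind between, overlapped the same Sgk1 site and was in 0.475% of windows. The E-box CACGTG, the element of clock and related factors, lay 246 bases before that Sgk1 start, 166 before the first Per1 start and 169 before the Fkbp5 start, and 7.15% of all windows held it. The cyclic AMP response element TGACGTCA, found in 1.79% of windows, was in none of the 14. These matches are letters in a window and were not set against binding data.

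RNA libraries held 26773937 to 34102567 counted reads, and RRBS libraries 18424875 to 88765177 calls. Dnmt1, the targeted gene, stood at 175 ± 16.6 CPM (counts scaled to library size) in the control group against 105 ± 9.57 CPM in the KO group (SD, n = 3 each; log2 fold change -0.74, SE 0.12, edgeR adjusted p 0.00577). The labels name Six2-positive cells as the source but describe DNA extraction from whole kidneys. Six2 itself was at 41.4 to 107 CPM in controls and 84.4 to 105 in KO, while stromal marker genes summed to 3109 to 3744 CPM in controls and 3008 to 3617 in KO, and proximal tubule markers to 2042 to 4376 and 417 to 493. Of 8 nephron progenitor markers 2 rose and 2 fell in KO, with sums of 356 to 507 CPM in controls and 391 to 436 in KO, and of 5 endothelium markers 4 fell. The samples are therefore treated as mixed kidney tissue, in which fewer cells of a type and less RNA per cell cannot be told apart. Control 3 stood apart, with the lowest Six2 (41.4 CPM), the highest proximal tubule sum (4376 CPM) and the only Y-linked Ddx3y above a trace (1.03 CPM). Its X-linked Xist was at 1364 CPM, between control 1 (993 CPM) and control 2 (1828 CPM). Ddx3y and Xist were scaled to total counts alone. Control 1 had the highest sum of immediate early genes (487 CPM), and KO 3 the highest sum of hepatocyte markers (67.4 CPM, against 10.3 to 19.1 in the other 5 libraries). Nothing in the labels says that replicates came from separate animals, so p-values measure the spread between these samples, which may be technical in part. Replicates differed by more than counting noise (chi-square per degree of freedom 104 to 205 between controls and 18 to 28.9 between KO samples).

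Serpina6 (ENSMUSG00000060807.7; chr12:103646630-103657218, GRCm38.p6) had the largest difference of the 10. Its level was 307, 247 and 323 CPM in controls 1 to 3 and 3.83, 4.13 and 11.2 CPM in KO 1 to 3. Every KO sample lay far below every control, and KO 3 was the highest of the KO samples. These rest on 7620 to 11886 reads per control and 123 to 296 per KO library. The means were 292 ± 40.3 and 6.40 ± 4.2 CPM (SD, n = 3 each), and the log2 fold change was -5.52 (SE 0.43), a 46.0-fold lower level that ranked 7th from the lowest of 18132 genes. Without KO 3 it was -6.20, and without control 3 it was -5.46.

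KO 3 was also the library with the most hepatocyte marker RNA. Alb, the liver's serum albumin, stood at 5.23 and 4.75 CPM in KO 1 and 2 and 40.2 CPM in KO 3, with controls at 5.33 to 8.28 CPM. None of the 4 hepatocyte markers tested passed, and their part in the Serpina6 level of KO 3 was not tested. All 10 proximal tubule markers fell in KO, among them the endocytic receptors Lrp2 (log2 fold change -2.22, edgeR adjusted p 0.000572) and Cubn (-3.27, adjusted p 0.000606). Their part in the Serpina6 difference was not tested.

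**Figure D1:**
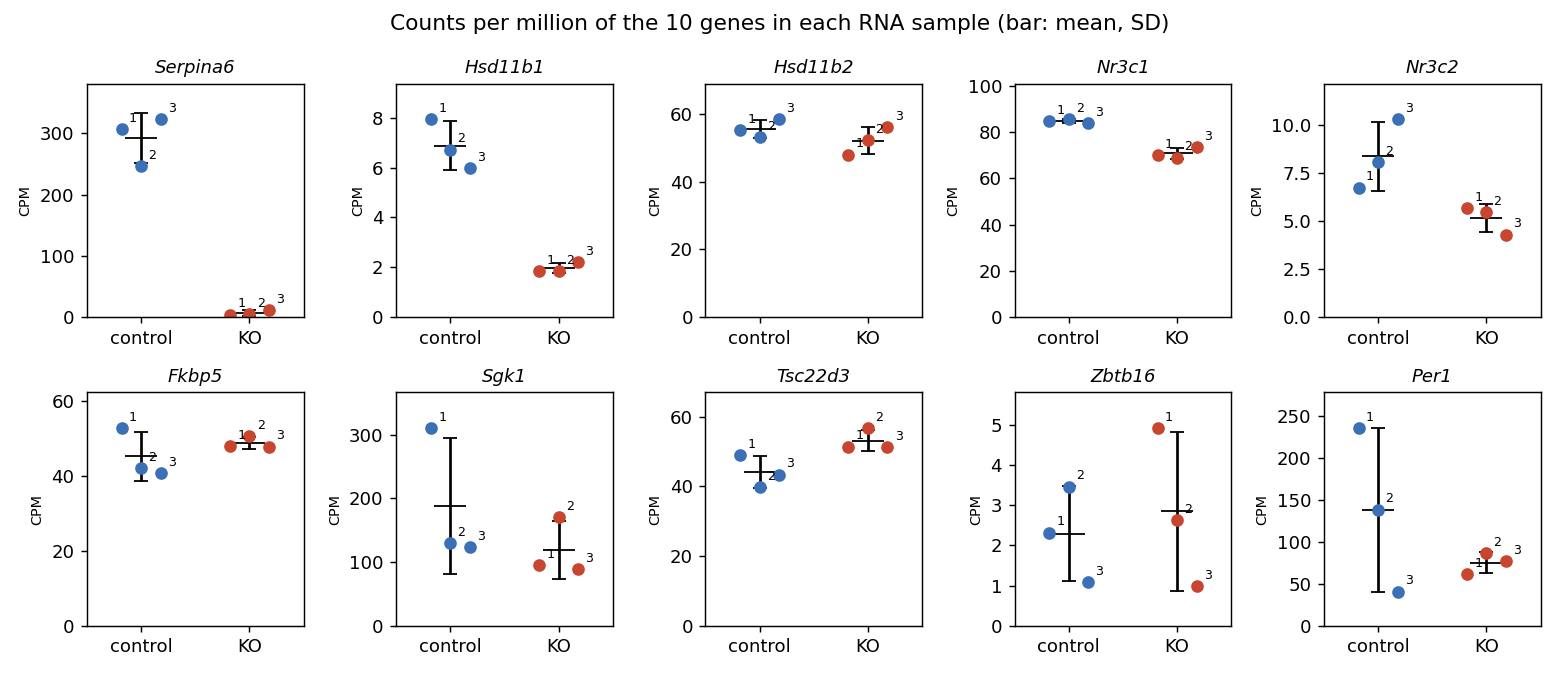
CPM of each of the 10 genes (vertical axes, each from 0) in the 3 control and 3 KO RNA samples, numbered by replicate, with the mean and SD as bars. Serpina6 fell from 247 to 323 CPM in controls to 3.83 to 11.2 in KO, whereas Sgk1 and Per1 were spread most widely among the controls.

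Other serpins of clade A, the family of secreted proteins to which Serpina6 belongs, were mostly near 0. Of 24 on the list, 7 could be tested, 2 fell and 0 rose at an edgeR adjusted p under 0.05, the threshold used throughout, by which 8.23% of all genes tested fell and 6.36% rose. The list's median log2 fold change was -1.63, against -0.00074 over all genes tested. That median is the value of Serpina1b, and without control 3 it was -0.083. Serpina10, an inhibitor of coagulation factors, stood at 22.1, 24.4 and 14.6 CPM in controls and 1.78, 2.56 and 3.57 in KO (log2 fold change -2.96, edgeR adjusted p 0.000759). Serpina1f stood at 0.518 to 1.22 CPM in controls and 0.076 to 0.125 in KO (-3.05, adjusted p 0.00511). Both had every KO sample below every control. Serpina1a and Serpina1b, alpha-1-antitrypsin genes whose near-identical copies can split reads, were highest in control 3 (5.54 and 3.75 CPM) and did not pass. Without control 3 the Serpina1a log2 fold change went from -2.12 to 0.17.

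Genes of other plasma carrier and binding proteins went in both directions. Of 8 genes 5 were tested, and 1 rose and 1 fell, against 6.36% and 8.23% of all genes tested. The median log2 fold change was 0.59, or -0.34 without KO 3. Ttr, the transporter of thyroid hormone and retinol-binding protein, stood at 51.4, 32.9 and 150 CPM in controls and 5.17, 5.31 and 11.1 in KO (log2 fold change -3.45, edgeR adjusted p 0.00651). Apoh, a phospholipid-binding plasma protein, stood at 0.183 to 0.55 CPM in controls and 1.21 to 2.62 in KO (2.48, adjusted p 0.0154). The Apoh call was lost without control 1 (adjusted p 0.0586) or KO 3 (0.0618). Alb had a log2 fold change of 1.40, and of -0.34 without KO 3, and Rbp4, the retinol carrier, one of -0.66, and neither passed. Rbp4 was at -1.21 without KO 3, still short of the threshold. With limma voom, run with sample quality weights here and below, Rbp4 was at -1.04 and passed (adjusted p 0.0375).

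Across the 6 RNA samples the genes whose log2 CPM followed Serpina6 most closely were Etfb (Pearson r 0.998), an electron carrier of mitochondrial oxidation, Ppp1r1a (0.997), a phosphatase inhibitor, Sema3g (0.996), a secreted semaphorin, Psap (0.996), the precursor of the lysosomal saposins, and Rab5c (0.996), an endosomal GTPase. Etfb stood at 53.2 to 55.4 CPM in controls and 28.4 to 32.5 in KO, and Ppp1r1a at 36.9 to 39.1 and 10.1 to 12.7. Controls and KO formed separate clusters, so r was not tested, and 562 of 13080 genes had an r above 0.95. Among the other 9 genes of the pathway r ran from -0.81 for Tsc22d3 to 0.99 for Nr3c1, with Hsd11b1 also at 0.99. These are descriptions over 6 libraries that share their groups.

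Hsd11b1 (ENSMUSG00000016194.13; chr1:193221640-193264045, GRCm38.p6), which regenerates active glucocorticoid, had the next largest difference of the 10. It stood at 7.95, 6.73 and 5.98 CPM in controls and 1.84, 1.84 and 2.20 in KO. The KO samples were close to each other and all below the controls. Its means were 6.89 ± 0.995 and 1.96 ± 0.212 CPM (SD, n = 3 each), a 3.51-fold lower level in KO (log2 fold change -1.81, SE 0.24), from 208 to 261 reads per control and 56 to 59 per KO library. The fold change stayed between -1.91 and -1.71 when each library was left out in turn.

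Hsd11b2 (ENSMUSG00000031891.5; chr8:105518746-105523988, GRCm38.p6), the inactivating enzyme of the distal nephron, showed no such gap. Its level was 55.2, 53.3 and 58.5 CPM in controls and 48.0, 52.3 and 56.2 in KO. The groups overlapped, with KO 3 above 2 of the controls. Means were 55.7 ± 2.64 and 52.2 ± 4.10 CPM (SD, n = 3 each), with a log2 fold change of -0.09 (SE 0.11).

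Among genes that make, activate or break down glucocorticoids, 12 of 23 were expressed enough to test. Of these 3 fell and 2 rose, against 8.23% and 6.36% of all genes tested. The median log2 fold change was 0.06, or -0.096 without control 1 and 0.47 without control 3. Hsd3b6, a 3-beta-hydroxysteroid dehydrogenase, stood at 10.1, 10.4 and 11.3 CPM in controls and 1.87, 2.26 and 1.71 in KO (log2 fold change -2.44, edgeR adjusted p 0.000345). Akr1d1, the steroid 5-beta-reductase, stood at 0.944 to 1.07 CPM in controls and 0.0935 to 0.19 in KO (-2.73, adjusted p 0.00281). In both genes every KO sample lay below every control. Hsd3b2, whose close relatives can share its reads, was carried by control 3, at 45.4 CPM against 0.19 to 5.97 in the other 5 libraries, and did not pass.

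The other genes called in that list were named after their values were seen. H6pd, which supplies the NADPH that HSD11B1 uses, stood at 107 to 158 CPM in controls and 87.6 to 96.7 in KO (log2 fold change -0.56, edgeR adjusted p 0.0435). Akr1c14, a 3-alpha-hydroxysteroid dehydrogenase, and Abcb1b, a drug and steroid exporter, were each higher in KO with a log2 fold change of 1.34 (adjusted p 0.0198 and 0.0242). All 3 calls were lost without control 1, KO 1 or KO 3, at adjusted p of 0.0732 to 0.153, and those of H6pd and Abcb1b also without KO 2 (0.117 and 0.0614). They were also lost with the replicate number as a block (edgeR adjusted p 0.108 for H6pd, 0.0559 for Akr1c14 and 0.0849 for Abcb1b). H6pd was lost as well with library-size scaling (0.128) and with at least 10 counts in every sample (0.0531). Without control 3, 4 genes of the list rose.

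Adrenal tissue lies next to the kidney, so its markers were read beside these genes. Of 8 adrenal cortex markers 5 could be tested and none passed in either direction, with sums of 20.8 to 35.2 CPM in controls and 15.9 to 29.6 in KO, most of it Akr1b7. Cyp11a1 had every KO sample above every control (0.95 to 0.966 against 0.453 to 0.68 CPM, edgeR adjusted p 0.13). It passed with limma voom (0.032) and without control 3 (0.0421), and not under the other 11 alternatives. Nr5a1 had every KO sample below every control (0.187 to 0.304 against 0.335 to 0.744 CPM, edgeR adjusted p 0.166). Cyp11b1, the enzyme of the last step of corticosterone synthesis, had no read in 5 libraries and 0.038 CPM in KO 3. Adrenal medulla markers summed to 0.951 to 4.50 CPM over all 6 libraries.

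Nr3c1 (ENSMUSG00000024431.13, chromosome 18), the glucocorticoid receptor, differed little but evenly. It stood at 84.7, 85.6 and 84.0 CPM in controls and 70.0, 68.9 and 73.6 in KO. The 3 controls were within 2 CPM of each other, and all KO samples lay below them. The log2 fold change was -0.26 (SE 0.09), a 1.20-fold lower level, with means of 84.8 ± 0.785 and 70.8 ± 2.48 CPM (SD, n = 3 each).

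Nr3c2 (ENSMUSG00000031618.12; chr8:76898083-77245012, GRCm38.p6), the mineralocorticoid receptor, was lower as well. It stood at 6.73, 8.06 and 10.3 CPM in controls and 5.67, 5.47 and 4.29 in KO. No KO sample reached the lowest control, though the gap between KO 1 and control 1 was narrow. Means were 8.36 ± 1.80 and 5.15 ± 0.745 CPM (SD, n = 3 each), a log2 fold change of -0.70 (SE 0.23) that became -0.52 without control 3 and -0.84 without control 1.

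All 20 chaperones and coregulators of the receptor were tested, 0 rose and 0 fell, and the median log2 fold change was -0.02. Without control 1 there were 2 that rose, with limma voom 1 that rose, and without control 3 there was 1 that fell. Fkbp4, the immunophilin that aids receptor transport, had a log2 fold change of 0.13, the HSP90 gene Hsp90aa1 one of 0.19 and Hsp90ab1 one of 0.00. Control 3 had the lowest level of each (227, 270 and 1956 CPM).

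Fkbp5 (ENSMUSG00000024222.15; chr17:28398753-28486149, GRCm38.p6), a receptor target whose product dampens the receptor, stood at 52.8, 42.1 and 40.8 CPM in controls and 48.0, 50.7 and 47.8 in KO. Control 1 was above and controls 2 and 3 below all KO samples, so the groups overlapped. The log2 fold change was 0.11 (SE 0.13).

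Tsc22d3 (ENSMUSG00000031431.12; chrX:140539528-140600522, GRCm38.p6), also called GILZ, an anti-inflammatory target, was the only gene of the 10 with every KO sample above every control. It stood at 49.0, 39.8 and 43.4 CPM in controls and 51.4, 56.8 and 51.4 in KO. The log2 fold change was 0.27 (SE 0.12), a 1.21-fold higher level, with means of 44.1 ± 4.62 and 53.2 ± 3.12 CPM (SD, n = 3 each). The distance between control 1 and the nearest KO sample was smaller than the SD of either group.

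Sgk1 (ENSMUSG00000019970.14; chr10:21882184-21999903, GRCm38.p6), the kinase that raises sodium channel activity, stood at 310, 130 and 123 CPM in controls and 95.3, 171 and 88.3 in KO. Control 1 was far above the rest, and KO 2 exceeded controls 2 and 3. The log2 fold change was -0.67 (SE 0.39) and -0.11 without control 1.

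Per1 (ENSMUSG00000020893.16; chr11:69095108-69109965, GRCm38.p6), a clock gene that glucocorticoids also induce, stood at 235, 138 and 40.4 CPM in controls and 61.7, 86.5 and 76.5 in KO. The controls spanned a wider range than the KO samples and enclosed them. The log2 fold change was -0.88 (SE 0.51), -0.25 without control 1 and -1.32 without control 3.

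Zbtb16 (ENSMUSG00000066687.4; chr9:48651797-48836225, GRCm38.p6), a zinc finger regulator induced by the hormone, stood at 2.32, 3.46 and 1.09 CPM in controls and 4.92, 2.62 and 0.988 in KO. Both groups ran from about the same low to a high sample, and they overlapped. The log2 fold change was 0.32 (SE 0.59), with -0.33 to 0.75 when each library was left out in turn and a sign that changed without control 3 or KO 1.

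All KO samples lay below all controls for 4 of the 10 (17.8% of genes tested) and above them for 1 (16.5% of genes tested), and the groups overlapped for 5. The median log2 fold change of the 10 was -0.46. The genes were chosen on this contrast, so nothing is read from these counts.

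**Figure D2:**
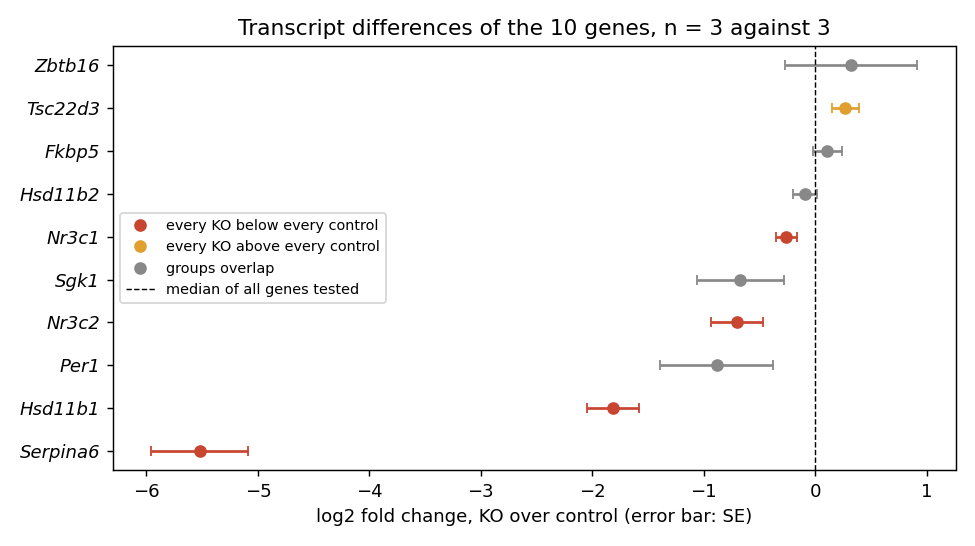
Log2 fold change of each of the 10 genes, KO over control, with its SE (horizontal axis), coloured by whether the 3 KO and 3 control samples overlap; the dashed line is the median of all genes tested. Serpina6 at -5.52 and Hsd11b1 at -1.81 lie apart from the other 8, which run from -0.88 to 0.32.

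Further targets of the receptor were read from a list of 30 genes, of which 29 were tested. In KO 6 fell and 0 rose, against 8.23% and 6.36% of all genes tested, and the median log2 fold change was -0.31, or -0.090 without control 1. Usp2, a ubiquitin protease, stood at 83.9, 63.7 and 50.3 CPM in controls and 20.5, 27.2 and 23.4 in KO (log2 fold change -1.48, edgeR adjusted p 0.00226). Pck1, the gluconeogenic enzyme that is abundant in proximal tubule, stood at 207, 116 and 437 CPM in controls and 17.7, 39.3 and 34.3 in KO (-3.06, adjusted p 0.00503). Both groups were separate for each gene. Klf9, a transcription factor induced by the hormone, had every KO sample below every control (30.9 to 76.1 against 25.1 to 29.9 CPM) at an adjusted p of 0.0566, and without control 3 it passed at 0.000551. With all samples kept, Klf9 passed with DESeq2 (adjusted p 0.00825), limma voom (0.00117) and no count filter (0.0118). Under the other 9 alternatives it did not pass. Dusp1, a phosphatase, and Cdkn1c, a cell cycle inhibitor, had log2 fold changes of -0.27 and -0.19 with overlapping groups. Cdkn1c passed without control 3 (-0.43, adjusted p 0.0163), and Dusp1 was at 0.09 without control 1. The count of targets that fell was 9 without control 3, 2 without KO 1 and 3 without KO 2 or KO 3, and 2 rose without control 3 and 1 with limma voom. All 10 proximal tubule markers fell beside these targets, with sums of 2042 to 4376 CPM in controls and 417 to 493 in KO, and their part in the counts was not tested.

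Genes of the mineralocorticoid response of the distal nephron, 16 in all and all tested, held 8 that fell and 0 that rose. Of all genes tested 8.23% fell and 6.36% rose. The list's median log2 fold change was -0.87. Kcnj1, the potassium channel ROMK, stood at 44.1, 59.4 and 60.1 CPM in controls and 8.38, 11.3 and 7.60 in KO (log2 fold change -2.58, edgeR adjusted p 0.000192). Atp1b1, a sodium pump subunit, stood at 999.9 to 1035 CPM in controls and 309 to 422 in KO (-1.53, adjusted p 0.000942). KO and controls did not overlap for either. Of the sodium channel subunits Scnn1a fell (-1.47, adjusted p 0.0189), while Scnn1b and Scnn1g were at -0.28 and -0.46 and did not pass. The Scnn1a call was lost without control 1, KO 1 or KO 3 (adjusted p 0.0532, 0.0849 and 0.0512). The list's count of genes that fell was 11 without control 3, 5 without KO 2 and 4 without KO 1 or KO 3, and with limma voom 1 rose. Markers of the loop and distal tubule moved beside them, with 5 of 6 lower and 1 higher and sums of 1216 to 1609 CPM in controls and 382 to 452 in KO, and that list shares Kcnj1 and Slc12a3 with this one. Of 6 collecting duct markers, which include Scnn1b and Scnn1g, 0 fell and 1, Ret, rose, with sums of 541 to 947 and 519 to 853 CPM. Their part in these counts was not tested.

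**Figure D3:**
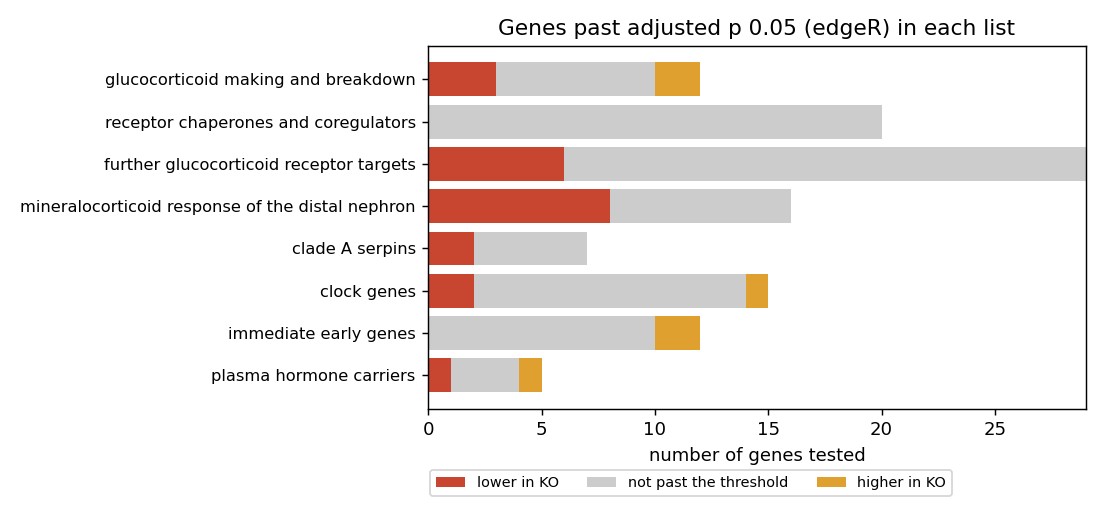
Number of genes tested in each of the 8 pathway lists (horizontal axis), split into those lower in KO, those higher in KO and those that did not pass an edgeR adjusted p of 0.05, with 3 samples a group. The mineralocorticoid response list has the most lower genes, 8 of 16, and the chaperone list has no call. Of all genes tested 8.23% were lower and 6.36% higher.

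The clock genes around Per1 gave 2 lower and 1 higher of 15 tested, against 8.23% and 6.36% of all genes tested. Their median log2 fold change was -0.23. Bhlhe40, a repressor of the clock, fell from 51.8 to 74.2 CPM in controls to 29.5 to 31.8 in KO (log2 fold change -1.08, edgeR adjusted p 0.00231). Nr1d1, the repressor REV-ERB alpha, stood at 17.6, 13.2 and 6.17 CPM in controls and 4.33 to 5.21 in KO (-1.35, adjusted p 0.0392). Cry1, a partner of the PER proteins, rose from 26.1 to 28.5 CPM in controls to 33.9 to 40.9 in KO (0.47, adjusted p 0.0397). Per2 and Per3 were at 0.14 and -0.09 and did not pass. Nr1d1 and Cry1 were both lost without control 1, control 2, KO 1, KO 2 or KO 3, at adjusted p of 0.0692 to 0.194. Cry1 was also lost with the replicate number as a block (edgeR adjusted p 0.137), library-size scaling (0.077) and no count filter (0.0799). In control 1 Nr1d1, Per1 and Sgk1 were each at their highest, and in control 3 Nr1d1 and Per1 were at their lowest among controls.

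Immediate early genes, which respond to handling and stress, were read beside Sgk1 and Per1. Of 12 tested 2 rose and 0 fell, against 6.36% and 8.23% of all genes tested. Their median log2 fold change was 0.17, or -0.062 without control 3. Their sums were 487, 342 and 272 CPM in controls and 422 to 480 in KO. Fosb stood at 11 CPM in control 1 and 0.68 to 1.75 in the other 5 libraries, and its log2 fold change of -1.62 became 0.86 without control 1. Fos was at 8.53, 3.33 and 2.99 CPM in controls and 6.95 to 9.20 in KO, and passed only without control 1 (1.32, edgeR adjusted p 0.021). Egr1 was at 42.7 to 53.7 CPM in controls and rose to 88.1 to 133 in KO (1.13, adjusted p 0.0038). Btg2 was at 22.3 to 37.2 CPM in controls and rose to 46.1 to 52.6 in KO (0.76, adjusted p 0.029). The Btg2 call was lost without control 2, KO 1, KO 2 or KO 3 (adjusted p 0.055 to 0.114). The part of this response in the Sgk1 and Per1 values was not tested.

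DNA methylation was compared over windows of CpG positions, each read 5 times or more in every one of the 9 RRBS samples. A gene region is the gene with 5000 bases either side, and a promoter window the 1000 bases either side of the annotated start, or of both ends where no strand was given. A window was tested with at least 3 such positions and 20 calls per sample, and called at an edgeR adjusted p under 0.05 with a difference of at least 10 points. Of gene regions, 48.1% were called lower and 0.0116% higher in KO, and 11.6% lower and 1.73% higher in adults. For promoter windows these shares were 4.1% lower and 0% higher in KO, and 4.23% lower and 1.16% higher in adults. The 8 members with a tested region gave 3 called lower and 0 higher in KO, and 3 called lower and 0 higher in adults. That is 37.5% of the 8 in each comparison. The KO count was 6 without control 3, 5 without KO 1 and 3 or 4 under the other 11 alternatives, as several differences lay close to 10 points. The adult count was 1 with 10000 bases either side, 2 with at least 10 calls or equal weighting of positions and 3 under the other 10. Their median difference was -9.50 points in KO, against -10.04 over all regions, and -4.44 in adults against -2.44. Age and genotype differ together between adults and controls, and so does sex as read from the calls. Chromosome X held 1.35% to 1.40% of calls in adults against 2.35% to 2.37% in controls, and chromosome Y 0.0954% to 0.124% against 0.0194% to 0.0267%. Age, genotype and sex cannot be told apart in any adult difference given here.

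Serpina6 and Hsd11b1, the genes with the largest transcript differences, could not be tested for methylation in these windows. Within 5000 bases of Serpina6 26 positions were listed, and 1, outside its low-coordinate end, had 5 calls in all samples. That position (chr12:103644058) read 64.5%, 82.4% and 96.2% in controls on 26 to 34 calls, and 95.7%, 55.6% and 28.6% in KO on 23, 27 and 7 calls. The adults read 100%, 40% and 83.3% on 5 to 8 calls. All 3 groups overlapped at this depth.

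Hsd11b1 had 63 positions listed and 2 usable, both inside the gene and 9 bases apart. The first read 21.2%, 55.4% and 53.6% in controls, 41.8%, 41.3% and 23.1% in KO and 57.9%, 50% and 64.2% in adults. The second read 40.6%, 64.6% and 75.0%, then 53.8%, 41.9% and 29.2%, then 68.4%, 52.8% and 65.7% in the same order. Control 1 was low at both, and KO and controls overlapped at both. The 6 CpG sites of the promoter stretch printed above had no read, so its methylation was not measured.

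Hsd11b2 had a methylated surround and an unmethylated start. Its region, 30 positions, read 25.8%, 21.97% and 22.02% in controls, 10.7%, 13.5% and 16.95% in KO and 18.2%, 22.8% and 19.3% in adults. The KO samples were all below the controls, whereas adults and controls overlapped. The KO difference was -9.53 points (edgeR adjusted p 0.00216), just under the 10 points of a call, and the adult difference -3.19 (adjusted p 0.312). In KO it was past 10 points, and so called, with at least 3 calls (-10.4), without control 2 or control 3 (-10.2 each) and without KO 3 (-11.1). Its promoter window, 21 positions, was at 1.05% ± 0.206, 1.38% ± 0.465 and 0.444% ± 0.145 in controls, KO and adults (SD, n = 3 each).

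Both receptor genes had partly methylated regions. The Nr3c1 region, 27 positions, read 44.8%, 45.2% and 41.5% in controls, 43.8%, 36.2% and 37.8% in KO and 27.5%, 27.2% and 27.6% in adults. KO 1 lay among the controls, and all adults lay well below them. The KO difference was -4.58 points (edgeR adjusted p 0.321), and the adult difference -16.4 (adjusted p 0.000681). With every position weighted the same the KO difference passed, at -10.5 points (adjusted p 0.0125), and with 10000 bases either side the adult difference was -9.71, under a call. The Nr3c2 region, 65 positions, read 32.6%, 35.8% and 26.3% in controls, 24.1%, 20.4% and 22.7% in KO and 28.1%, 27.5% and 27.3% in adults. KO lay below controls with no overlap, and the tight adult values fell inside the control range. The differences were -9.19 points in KO (adjusted p 0.0033) and -3.92 in adults (adjusted p 0.206). In KO the region was called without control 3 (-11.8) or KO 1 (-10.04), with equal weighting (-13.3) and with the wider flank (-11.4).

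**Figure D4:**
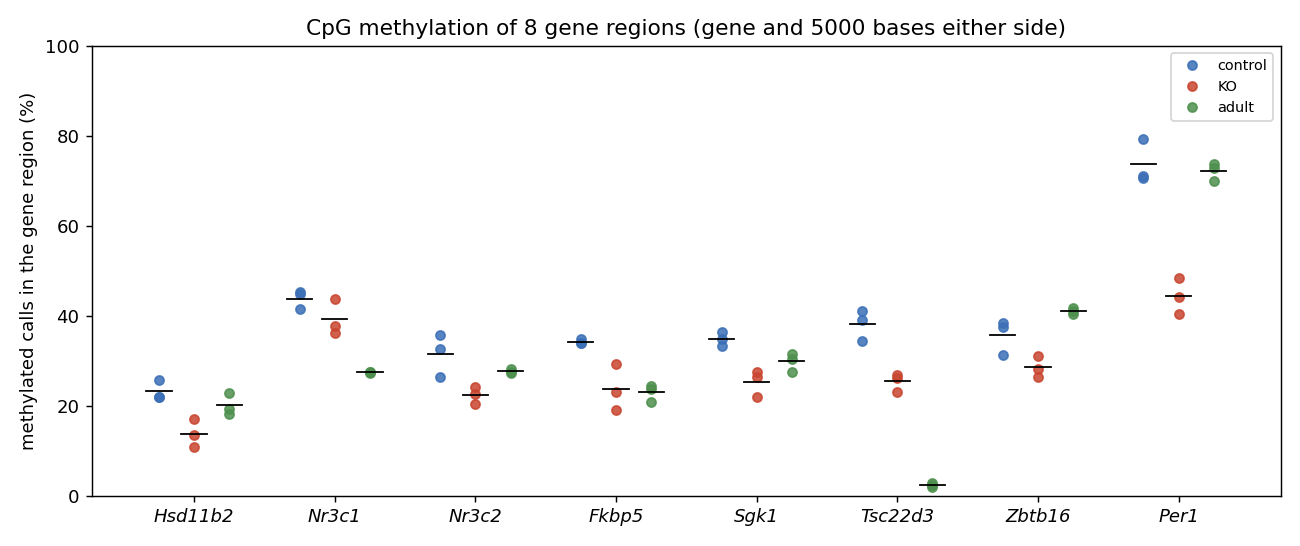
Methylated share of CpG calls (vertical axis, percent) in the regions of the 8 genes that could be tested, for each control, KO and adult RRBS sample, with the group mean as a bar. The Per1 region has the widest gap between controls and KO (73.7% against 44.4%), and Tsc22d3 is near 0 in adults. The median KO difference of the 8 was -9.50 points, against -10.04 over all regions.

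Of the targets, Per1 had the largest KO difference. Its region, 18 positions, read 70.7%, 71.1% and 79.3% in controls, 44.2%, 40.5% and 48.4% in KO and 73.7%, 72.8% and 70.1% in adults. The KO samples stood apart from both other groups, which overlapped each other. The KO difference was -29.3 points (edgeR adjusted p 9.72e-05), and 2.19% of all regions had a larger decrease; the adult difference was -1.52 (adjusted p 0.784). With at least 10 calls per position the KO difference was -18.7 points, and with 10000 bases either side it was -6.21, under a call. Around the second listed Per1 start 7 positions read 56.2% ± 12.6 in controls, 35.5% ± 13.4 in KO and 44.9% ± 9.47 in adults, and around the first 3 positions read 3.47% ± 3.34, 0.877% ± 1.52 and 0.521% ± 0.902 (SD, n = 3 each). The E-box shown above belongs to the first start. Its printed stretch had 9 RRBS positions, none of them usable, so methylation at the E-box was not compared.

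The Sgk1 region, 125 positions, read 34.8%, 36.3% and 33.2% in controls, 26.4%, 27.5% and 22.05% in KO and 31.6%, 27.5% and 30.4% in adults. Both other groups lay below every control. The differences were -9.46 points in KO (edgeR adjusted p 0.00023) and -4.96 in adults (adjusted p 0.0197), both under a call. In KO the region was called without control 3 (-10.3), KO 1 (-10.02) or KO 2 (-10.6), and with at least 10 calls (-10.2). The listed starts of this gene differed in level. Around the start with the response element 53 positions read 2.04% ± 1.003 in controls, 1.56% ± 0.377 in KO and 1.03% ± 0.949 in adults (SD, n = 3 each). None of them lay in the printed stretch that holds the element. That stretch had no RRBS position, so methylation at the element and at the E-box beside it was not measured.

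At the earlier Sgk1 start, whose stretch is the second one printed, 2 CpG positions were usable. The capitalised one, 19 bases before the start, read 98.3%, 93.1% and 91.5% in controls, 72.0%, 62.3% and 36.7% in KO and 100%, 88.6% and 94.9% in adults. The one 11 bases after the start read 79.2%, 71.3% and 81.8%, then 50%, 52.2% and 29.6%, then 81.8%, 79.5% and 71.8% in the same order. At both, all KO samples were below all controls and adults, with 27 to 53 calls in KO and 44 to 145 in controls. Pooled they read 86.2% ± 3.36 in controls, 50.8% ± 15.2 in KO and 86.1% ± 4.17 in adults (SD, n = 3 each). With 2 positions the window was too small to enter the fit, and it was picked after its values were seen.

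Fkbp5 and Zbtb16 both had unmethylated starts. Their promoter windows averaged 1.39% and 0.926% in controls, 1.16% and 1.43% in KO and 1.11% and 1.02% in adults, with no call. The 4 used CpG sites of the Fkbp5 stretch read 0% in most samples. The Fkbp5 region, 43 positions, read 33.9%, 34.8% and 34.0% in controls, 22.96%, 29.2% and 19.1% in KO and 20.9%, 24.4% and 23.8% in adults. Both groups were below every control, by -10.5 points in KO (edgeR adjusted p 0.00385) and -11.2 in adults (adjusted p 0.000916). In KO the region was under 10 points, and so no call, without KO 3, the library with the fewest calls (-8.16), with positions weighted equally (-9.92) and with at least 3 calls (-8.69). The adult difference was -2.13 (adjusted p 0.134) with positions weighted equally, -8.75 with at least 10 calls and -9.46 with 10000 bases either side, none of them a call. The Zbtb16 region, 176 positions, read 38.5%, 37.6% and 31.2% in controls, 31.1%, 26.4% and 28.1% in KO and 41.1%, 41.8% and 40.4% in adults. It was the only one of the 8 with every adult above every control, by 5.37 points (adjusted p 0.0303), and it was 7.22 points lower in KO (adjusted p 0.00466), both under a call.

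Tsc22d3, the X-linked target, had the largest adult difference. Its promoter window lay around 1 of its 3 listed starts (chrX:140600522). The 33 positions there read 41.5%, 34.6% and 47.2% in controls, 26.2%, 24.8% and 34.4% in KO and 0.912%, 1.62% and 0.464% in adults. KO samples lay just below the controls, and adults were close to 0. The KO difference was -12.7 points (edgeR adjusted p 0.215) and the adult difference -40.1 (adjusted p 5.22e-11). Over its whole region, 58 positions, the means were 38.2% ± 3.47, 25.4% ± 2.05 and 2.38% ± 0.492 (SD, n = 3 each), and both differences were called (-12.9 points, adjusted p 0.000602, and -35.9 points, adjusted p 9.66e-11). The 5 promoter tests gave 0 calls in KO and 1 in adults.

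The low adult value of Tsc22d3 was shared by other promoters on chromosome X. The median of 357 other X promoter windows was 33.3% to 35.9% in controls, 22.1% to 28.6% in KO and 0.610% to 0.658% in adults, whereas 12137 autosomal windows had medians of 1.44% to 1.59% in newborns and 0.730% to 0.748% in adults. In KO, X held 2.06% to 2.44% of calls and Y 0.0197% to 0.0234%. Within its stretch shown above the capitalised CpG sites read 22.5% to 72.2% in controls. In KO 1 and KO 3 they read 0% to 10%, and in KO 2 they read 24.1% to 48.3%, on 10 to 30 calls each. The used positions 21, 25 and 29 bases after the start read 39.1% to 64.3% in controls. There KO 1 read 33.3% to 45.8%, KO 2 25.5% to 40.8% and KO 3 50% to 60.7%, on 28 to 49 calls. KO and control values overlapped there, and 21 bases after the start KO 3 was above every control.

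**Figure D5:**
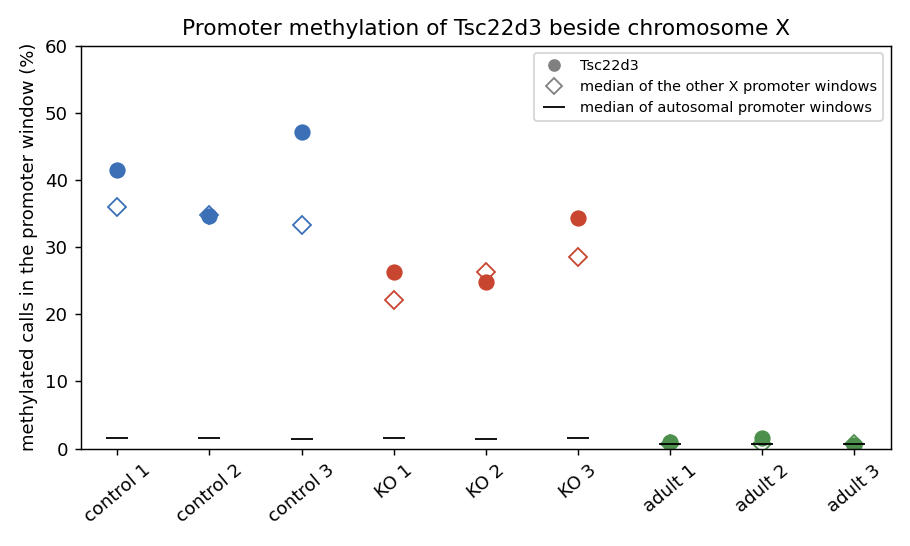
Methylated share of calls (vertical axis, percent) in the Tsc22d3 promoter window of each RRBS sample, beside the median of the other X promoter windows and that of autosomal ones. Tsc22d3 is at 34.6% to 47.2% in controls, 24.8% to 34.4% in KO and 0.464% to 1.62% in adults, and the X median is likewise under 1% in adults only.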

How the data were processed

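The deposited RNA files give the authors' raw read counts per gene, with 5 lines of unassigned reads (22.9% to 35.8% of reads) left out here. The deposited RRBS files give, per cytosine, the authors' methylation percent and counts of methylated and unmethylated calls. Trim Galore, Bismark, STAR 2.4.1d, HTSeq 0.6.1 and builds mm10 and GRCm38 are named in the submitters' processing notes. Of 20083 RRBS positions in promoter windows, 99.7% fell on a CpG of GRCm38.p6.

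Counts were tested with edgeR 4.0.16 (quasi-likelihood, TMM scaling, filterByExpr; limma 3.58.1, R 4.3.3), 3 KO against 3 controls, with Benjamini-Hochberg adjustment over all genes. CPM are TMM-scaled, and SEs come from the quasi-likelihood F. Methylated and unmethylated calls were summed per window and tested in edgeR with an intercept per sample. Windows came from RefSeq gene coordinates for 21887 genes, 17492 of them with a strand, over 744624 positions. Read and call numbers limit precision by counting error only, since reads were not tied to single molecules.

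On simulated counts for 18132 genes 44% of 2-fold and 92% of 4-fold changes were recovered. On simulated calls with the fitted spread, 39.5% of 200 decreases of 20 points were recovered among 12496 promoter windows and 84% of 200 among 17212 regions. Under a beta-binomial spread these fell to 0% and 15% (quasi-binomial model 23% and 28%), so a window that did not pass says little.

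The members and lists were chosen with earlier results of these data known, and some lists overlap. Named beside the 10 members were Dnmt1, the first 3 genes of each pathway list and its 2 smallest p past the threshold, the first 2 of each cell type list, and the 5 genes closest to Serpina6. Not every gene the rule names is given. Promoters of Serpina6, Hsd11b2, Nr3c1 and Zbtb16 were not analysed as sequence here. Alternatives for RNA were DESeq2 1.42.0, limma voom, the replicate number as a block, RLE or library-size scaling and stricter or no count filters. Wherever voom is named, it was run with sample quality weights. Those for methylation were the block, coverage of 3 or 10, flanks of 0.5 or 2 times the size, equal weighting of positions and a quasi-binomial model. Both had each sample left out in turn. Promoter windows at all listed starts were added after seeing the data.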

Additional observations from a re-analysis of the deposited data

How the results depend on the processing

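Serpina6 and Hsd11b1 stayed lower under all 13 RNA alternatives, at log2 fold changes of -6.20 to -5.25 and -1.93 to -1.71. Limma voom gave 2442 genes higher and 2595 lower in KO, against 1153 and 1493, and 4 members lower against 2, a count from which nothing is read because the members were chosen on this contrast. A minimum of 10 counts in every sample left 678 higher. Leaving out each sample gave 647 to 2512 higher and 701 to 2561 lower, the most without control 3. Same-numbered RNA samples did not deviate together (correlations -0.24, -0.07 and -0.12), nor did RRBS samples, so the numbers were not taken as pairs. With the replicate number as a block 798 genes were higher and 1005 lower. Under the block promoter windows gave 520 lower and 1 higher, and regions 0 higher.

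Log2 fold changes that reversed were those of Hsd3b2 (0.64 with the block, 1.17 with voom, -2.57 to 1.94 leaving out samples), Hsp90ab1 (-0.16 with voom, -0.023 with no count filter, -0.20 to 0.17), Per3 (0.25 with voom, -0.26 to 0.28) and Six2 (-0.032 with voom, -0.12 to 0.43). Leaving out samples also reversed Alb (-0.34 to 1.84), Apoa1 (-0.47 to 1.53), Dusp1 (-0.48 to 0.086), Fkbp4 (-0.028 to 0.26), Fosb (-2.13 to 0.86), Per2 (-0.073 to 0.49) and Serpina1a (-2.64 to 0.17). None of them had passed. Zbtb16, a member, went from 0.32 to -0.044 with voom and ran from -0.33 to 0.75 leaving out samples.

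Promoter windows lower in KO were 512, and 782 with the quasi-binomial model, 77 with positions weighted equally, 335 with 10 calls, 267 and 1046 with flanks of 500 and 2000 bases, and 291 to 525 leaving out samples. Those higher were 0, and 1 with 3 or 10 calls, and 0 to 2 leaving out samples. In adults 528 were lower, and 336 with 10 calls, 348 and 793 with the narrower and wider flank, and 145 higher, 80 with the narrower. Regions higher in KO were 2, and 1 with the quasi-binomial model, equal weighting or the narrower flank, 0 with 3 calls or the wider flank, and 0 to 7 leaving out samples. Regions lower in adults were 1998, and 567 with equal weighting. For the narrower flank, fewer windows and positions entered by construction. For the other changes the cause was not tested.

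Methylation differences that reversed, of which none was called, were in KO promoters Fkbp5 (0.160 points with 10 calls, 0.176 with the narrower flank, -0.500 to 0.0906 leaving out samples), Hsd11b2 (-3.04 with the wider flank) and Sgk1 (-2.88 to 1.06 leaving out samples). In adult promoters they were Fkbp5 (0.570 weighted equally, 0.864 with the narrower flank, -0.525 to 0.0675), Sgk1 (-0.481 at all listed starts) and Zbtb16 (-0.794 and -0.000257 with the narrower and wider flank, -0.0572 to 0.176). In adult regions they were Hsd11b2 (1.82 weighted equally, 0.572 with the narrower flank) and Per1 (1.83 weighted equally, 7.70 with the wider flank, edgeR adjusted p 0.0039 but under 10 points, -3.04 to 1.30). Depth limits Serpina6 and Hsd11b1, with 1 and 2 usable positions. Hsd11b1 entered the KO fit of regions only with 3 calls (-17.4 points, edgeR adjusted p 0.0577) or the wider flank (-7.71 points, adjusted p 0.131).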
